A study of Homo sapiens with 4 samples.

Results

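The Hedgehog genes described here are the rows that carry the symbols of the 3 ligands SHH, IHH and DHH, of the receptor PTCH1, of the signal transducer SMO, of the transcription factors GLI1, GLI2 and GLI3, and of the ligand-binding inhibitor HHIP. All 9 were found, each once, among 20242 promoters. The cells were JMJD3c-hESCs, made from SEES-3, a line of human embryonic stem cells. They carry a piggyBac construct in which a Tet-responsive element drives the catalytic region of the H3K27 demethylase JMJD3 (JMJD3c), tagged with HA and given a nuclear localization signal, with a puromycin resistance gene, in a parent line that stably expresses the reverse Tet-transactivator. All groups share these transgenes and were grown without feeders in StemFit AK-03 medium. Doxycycline (Dox) was given at 1 µg/ml to the +Dox cells and left out for the −Dox cells, and samples were taken on day 3. Stable clones were selected with puromycin, and whether 1 clone or several were used for chromatin is not given in the sources used here. Chromatin immunoprecipitation followed by sequencing (ChIP-seq) was made with antibodies to H3K27me3 and H3K4me3, with 1 library for each mark and condition, so no replicate spread and no p-value can be given.

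In Hedgehog signalling a secreted ligand binds PTCH1, which otherwise keeps SMO inactive at the primary cilium. Active SMO shifts the balance of GLI2 and GLI3 from repressor to activator forms. GLI1, PTCH1 and HHIP are themselves induced as targets, the last 2 limiting the signal. SHH patterns the neural tube and limb, IHH acts in cartilage, bone and gut, and DHH in testis and peripheral nerve. H3K27me3, laid down by Polycomb, marks silent genes, H3K4me3 marks active or poised promoters, and promoters with both are named bivalent.

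Each value is ngs.plot coverage scaled to the reads of its library and summed over 3 kb on each side of a transcription start site, the same length for every gene. A promoter was taken as marked above 20, the threshold of the study's methods, which is about 15.7 to 21.0 reads. Low values came in steps, from which libraries of 2629351 to 3509244 reads were estimated. The step was the same, 0.373, in the H3K27me3 +Dox and the H3K4me3 +Dox libraries, which gives both the same estimate of 2682085 reads. If 1 of them had been scaled with the read number of the other, all ratios of that mark would shift by a common factor. This was not tested. Intervals in parentheses after a value or ratio are 95% intervals from approximate reads (exact Poisson for a value, exact Clopper-Pearson on the +Dox share for a ratio) and cover counting error only. Among 11 pluripotency genes, 0 had H3K27me3 above 20 in −Dox cells, against 11.0% of all promoters. H3K4me3 was above 20 at 10 of them, as it was at 12887 of all 20242 promoters. The exception was POU5F1, which had neither mark above 20. All 6 germ layer genes examined were above 20 for H3K27me3 in −Dox cells, against 11.0% of all promoters.

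The sequences just before the start sites of the 3 bivalent members are shown because these are the promoters that carried both marks in −Dox cells. They are the 250 bases before the outermost annotated start of each gene on GRCh37, read 5′ to 3′ on the strand of the gene, with each CpG dinucleotide in capitals. SHH is at chr7:155605158-155605407 (minus strand), IHH at chr2:219925644-219925893 (minus strand) and PTCH1 at chr9:98279340-98279589 (minus strand, ending 87 bases before the deposited start). The deposited start is that of the deposited transcript in GENCODE 44 mapped to GRCh37.
SHH: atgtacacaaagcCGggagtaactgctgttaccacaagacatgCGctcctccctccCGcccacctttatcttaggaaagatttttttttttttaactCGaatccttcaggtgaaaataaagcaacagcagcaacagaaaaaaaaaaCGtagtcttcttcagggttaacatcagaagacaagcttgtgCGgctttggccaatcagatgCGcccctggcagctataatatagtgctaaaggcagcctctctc
IHH: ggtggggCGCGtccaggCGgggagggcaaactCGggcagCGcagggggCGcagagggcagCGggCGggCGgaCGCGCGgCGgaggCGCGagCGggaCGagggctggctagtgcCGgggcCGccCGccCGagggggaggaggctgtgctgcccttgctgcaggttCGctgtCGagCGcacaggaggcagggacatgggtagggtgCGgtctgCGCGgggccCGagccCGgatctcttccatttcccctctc
PTCH1: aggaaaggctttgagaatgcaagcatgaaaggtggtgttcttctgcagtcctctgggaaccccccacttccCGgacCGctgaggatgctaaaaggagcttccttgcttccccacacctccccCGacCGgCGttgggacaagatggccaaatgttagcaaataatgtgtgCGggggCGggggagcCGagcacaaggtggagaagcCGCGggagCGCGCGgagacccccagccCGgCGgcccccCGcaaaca
These stretches hold 7 CpG at SHH, 29 at IHH and 16 at PTCH1. Over the 1001 bases centred on the deposited start, SHH had 51 CpG, GLI1 46, PTCH1 79, HHIP 84, SMO 89, GLI2 95, GLI3 113 and IHH 124. The median of the 18244 promoters with an assigned position was 62, and that of the bivalent ones among them was 86. SHH and GLI1 were thus below the median of all promoters and the other 6 above it, and CpG number did not sort the members by mark.

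H3K27me3 in −Dox cells was found on the ligands, on HHIP and on PTCH1, and not above the threshold on SMO or the GLI factors. It exceeded 20 at 5 of 9 members, against 11.0% of all promoters. SHH had the highest value, 112 (89.9 to 138), at or above 98.5% of promoters. HHIP followed with 63.9 (47.3 to 84.0), then IHH with 41.8 (28.9 to 59.0), PTCH1 with 25.5 (15.6 to 39.4) and DHH with 23.2 (13.6 to 36.2). SMO had 7.23, GLI2 6.09, GLI1 4.18 and GLI3 3.42, which are about 2.69 to 5.67 reads and lie around the median of all promoters, 6.09. In this order the interval of SHH did not overlap that of HHIP, whereas each later pair of neighbours had overlapping intervals.

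H3K4me3 in −Dox cells was distributed the other way round. GLI2 had 119 (99.3 to 142), GLI3 113 (93.2 to 135), SMO 94.0 (76.8 to 115), PTCH1 84.6 (68.2 to 105) and GLI1 79.2 (63.1 to 98.2), all well above the median promoter at 41.3. The ligands and HHIP lay near the threshold, with 22.5 (14.7 to 34.1) at SHH, 21.9 (13.9 to 32.9) at IHH, 19.4 (11.7 to 29.5) at HHIP and 18.2 (10.9 to 28.3) at DHH. The 5 higher members had mutually overlapping intervals except GLI1 against GLI2, as had the 4 lower ones, and the 2 sets did not overlap. PTCH1 was the only member with a high value of H3K4me3 and H3K27me3 above 20, and the interval of its H3K27me3 value (15.6 to 39.4) held 20.

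**Figure D1:**
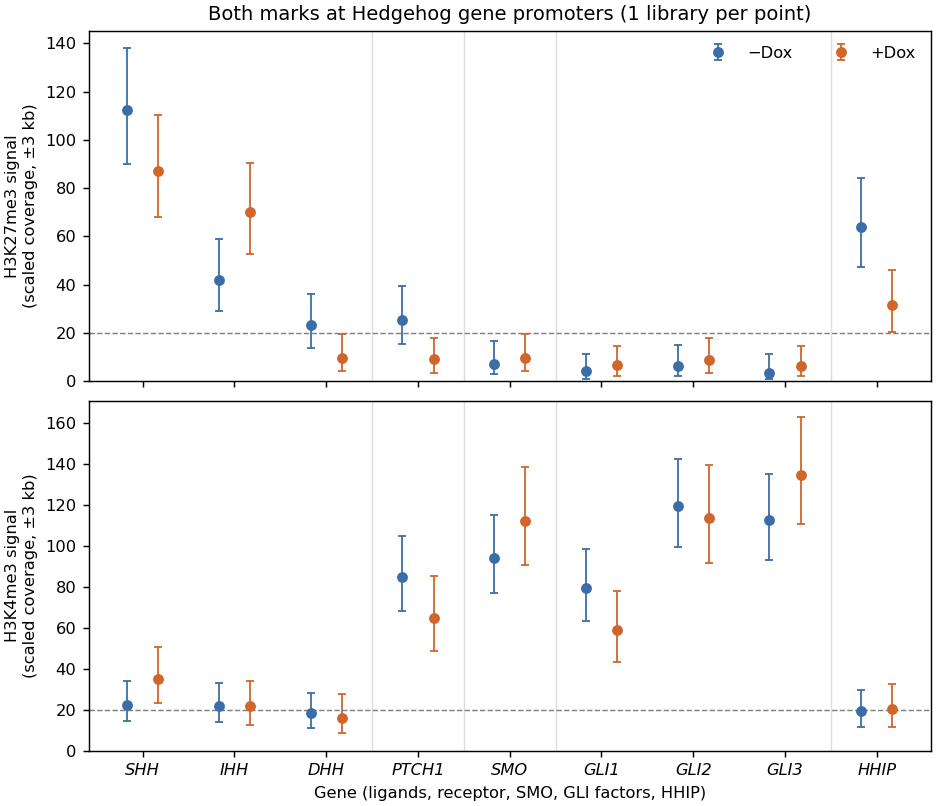
H3K27me3 (top) and H3K4me3 (bottom) signal, as scaled coverage over 3 kb on each side of the start, at the 9 Hedgehog genes in −Dox (blue) and +Dox (orange) cells. Each point is 1 library, bars are 95% Poisson intervals of approximate reads, and the dashed line is the threshold of 20. SHH is highest for H3K27me3 at 112 in −Dox cells, and GLI factors and SMO stay below 20 in both conditions.

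By these values 3 of 9 members were bivalent in −Dox cells (SHH, IHH and PTCH1), against 9.42% of all promoters. HHIP and DHH, 2 of 9, were marked by H3K27me3 only, against 1.58%, and SMO, GLI1, GLI2 and GLI3, 4 of 9, by H3K4me3 only, against 54.2%. HHIP and DHH missed the bivalent class with H3K4me3 values of 19.4 and 18.2, and SHH and IHH entered it with 22.5 and 21.9. The counting intervals of all 4 values hold 20, so the ligands and HHIP cannot be separated by class at this depth. The H3K27me3 intervals of PTCH1 (15.6 to 39.4) and DHH (13.6 to 36.2) also hold 20, so their side of that threshold is not settled. In +Dox cells 3 members were above 20 for both marks, namely SHH, IHH and HHIP. PTCH1 was then marked by H3K4me3 only and DHH by neither mark. HHIP entered the bivalent class with an H3K4me3 value of 20.5 (11.4 to 32.5), against 19.4 in −Dox cells. The H3K4me3 intervals of HHIP, IHH and DHH in +Dox cells held 20, so their class is not settled there either. The entry of HHIP is thus not a resolved change.

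Whether induction of JMJD3c lowered H3K27me3 at these genes was examined next. The mark was lower in +Dox cells at PTCH1, HHIP, DHH and SHH, and higher at IHH and at the 4 members below 20. PTCH1 went from 25.5 to 9.32, a ratio of 0.366 (0.122 to 0.842), and HHIP from 63.9 to 31.7, a ratio of 0.496 (0.290 to 0.805). Both limit the pathway in cells that receive the signal. DHH went from 23.2 to 9.69, with a ratio of 0.418 whose interval held 1 (0.163 to 1.05). SHH, at 112 and 86.9, had a ratio of 0.774 (0.560 to 1.08), and its +Dox value was still at or above 98.5% of promoters. IHH went from 41.8 to 70.1, a ratio of 1.68 (1.06 to 2.63). The interval of IHH lay wholly above those of PTCH1 and HHIP, and because all come from the same pair of libraries a change of scaling cannot bring them together. Under both scalings tried, the intervals of PTCH1 and HHIP stayed below 1 and that of IHH above 1.

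The ratio was below 0.5 at 3 of 9 members, against 21.5% of the 19462 promoters with a ratio, and below 0.66 at the same 3, against 33.6%. Of the 5 members above 20 in −Dox cells 3 were below 0.5, against 40.4% of all 2226 such promoters. The interval lay below 1 at 2 of 9 members (7.05% of all promoters) and above 1 at 1 of 9 (1.58%). Among the 5 members above 20, it lay below 1 at 2 and above 1 at 1, against 47.3% and 2.88% of such promoters. The −Dox value enters both the threshold and the ratio, so the share below 1 among promoters above 20 is not independent of how they were chosen. The median log2 ratio was −1.01 over the 5 members above 20 and −0.79 over all such promoters, and it was 0.42 over all 9 members and −0.15 over all promoters. The positive median rests on SMO and the GLI factors. Their ratios of 1.34 to 1.85 come from about 3 to 8 reads a library, a depth too low to show a change.

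**Figure D2:**
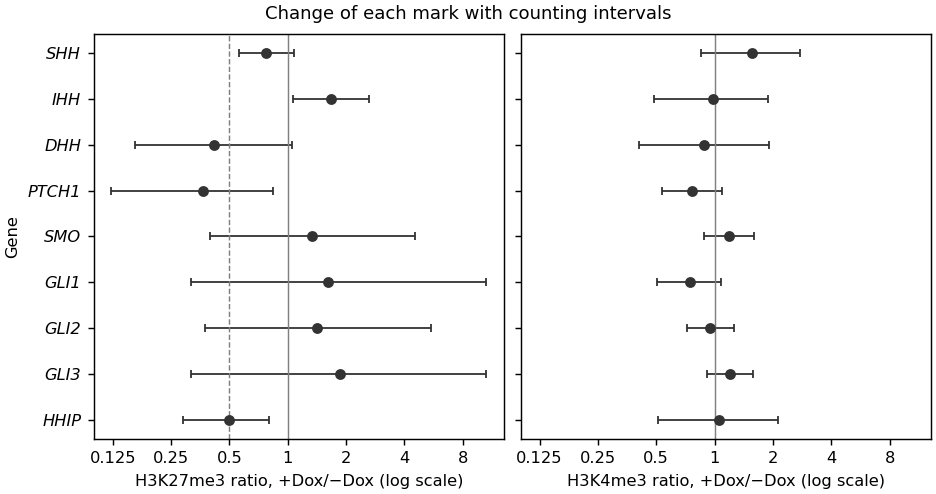
The +Dox/−Dox ratio of H3K27me3 (left) and H3K4me3 (right) at each Hedgehog gene on a log scale, with 95% counting intervals. The solid line is a ratio of 1 and the dashed line 0.5. PTCH1 and HHIP lie below 1 and IHH above 1 for H3K27me3, and every H3K4me3 interval holds 1.

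Every H3K4me3 ratio of the members had an interval that held 1. The interval of the ratio lay below 1 at 0 of 9 members (3.08% of all promoters) and above 1 at 0 of 9 (1.78%). SHH had the highest ratio, 1.56 (0.853 to 2.75), with values of 22.5 and 35.0. GLI1 had the lowest, 0.744 (0.507 to 1.07), with 79.2 and 58.9, and PTCH1 followed with 0.767 (0.532 to 1.09), from 84.6 to 64.9. When the libraries were scaled to a median ratio of 1 over unmarked promoters, which multiplies H3K4me3 ratios by 0.892, the intervals of GLI1 and PTCH1 lay below 1. SMO went from 94.0 to 112, a ratio of 1.19 (0.884 to 1.60), and GLI3 from 113 to 135, a ratio of 1.20 (0.914 to 1.57). GLI2 (119 and 113), IHH (21.9 and 21.6), HHIP (19.4 and 20.5) and DHH (18.2 and 16.0) had ratios between 0.879 and 1.06. The median log2 ratio of the members was −0.02, and that of all promoters −0.03.

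**Figure D3:**
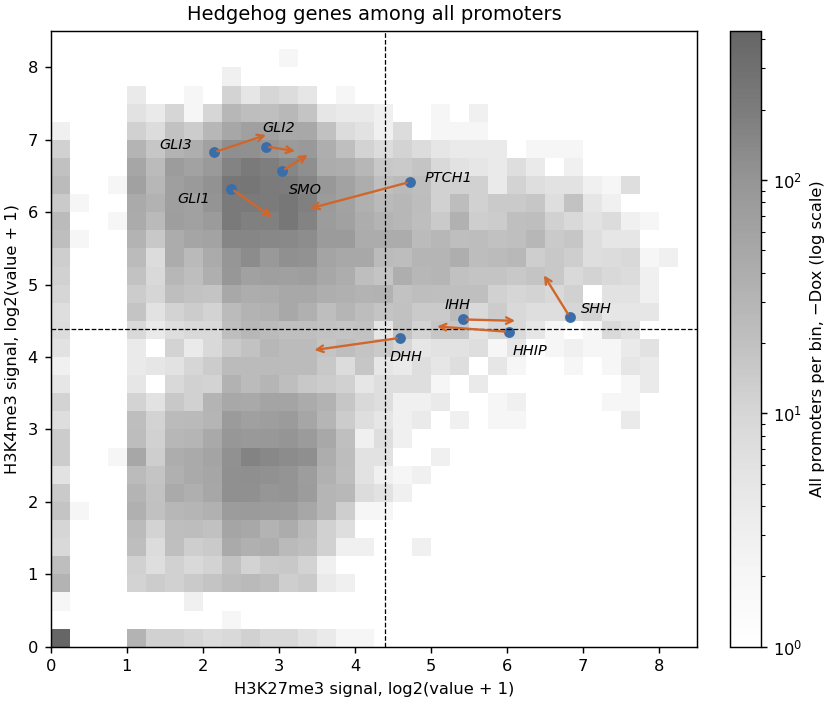
H3K27me3 (horizontal) against H3K4me3 (vertical), both as log2(value + 1), for all 20242 promoters in −Dox cells (grey bins) and for the Hedgehog genes (blue points, −Dox; arrowheads, +Dox). Dashed lines mark a value of 20. SMO and the GLI factors sit in the H3K4me3-only part, the ligands and HHIP beside the H3K4me3 threshold, and PTCH1 moves left out of the bivalent part.

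The start site of each deposited transcript bears on what these values describe. It was taken from GENCODE 44 mapped to GRCh37, and the annotation that the authors used may place it elsewhere. The start was the canonical one of the annotation for SHH (ENSG00000164690, window chr7:155602157-155608157), IHH (ENSG00000163501, chr2:219922643-219928643), SMO (ENSG00000128602, chr7:128825474-128831474), GLI3 (ENSG00000106571, chr7:42273808-42279808) and HHIP (ENSG00000164161, chr4:145564308-145570308). It lay 350 bases inside the canonical start for GLI1 (ENSG00000111087, chr12:57850918-57856918) and 245 bases upstream of it for GLI2 (ENSG00000074047, chr2:121490199-121496199). For PTCH1 (ENSG00000185920, chr9:98276253-98282253) it lay 7705 bases upstream of the canonical start, so by this annotation the canonical promoter is outside the window and was not measured. The deposited transcript of DHH (ENSG00000139549, canonical start at position 49488584 of chromosome 12) was not matched. Each of the 8 placed windows holds the first exon of its transcript, and no other exon of it. ChIP-seq signal has no strand, and other annotated genes share some windows. HHIP-AS1, an antisense RNA, spans the whole HHIP window. The 3′ end of INHBE lies in the window of GLI1, and the microRNA gene MIR3131 in that of IHH. Annotated genes without a symbol lie in windows too. A long non-coding RNA gene lies within that of PTCH1 and another within that of GLI1. A protein-coding gene and a long non-coding RNA gene also span the whole HHIP window. No other measured promoter with an assigned position had a window that overlapped any of the 8 placed windows. The window of DHH could not be checked.

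The GLI binding motif GACCACCCA was searched on both strands of each window of 6001 bases. Of the members only PTCH1 held it, once, on its own strand and 131 bases downstream of the deposited start, where 4.87% of all windows held it at least once. None of the other 7 placed windows held these letters, GLI1 and HHIP included. Such a match is a description of the sequence and not a site of binding.

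The other genes of the pathway, 36 in all, were described by role. None of the 9 cytoplasmic and nuclear regulators and none of the 9 cilium genes had H3K27me3 above 20 in −Dox cells. Their highest values were 14.1 and 12.9, and all 18 were marked by H3K4me3 only. H3K27me3 exceeded 20 at 2 of 3 genes of ligand maturation and release, at 3 of 6 co-receptors and further receptors, and at 6 of 9 targets, against 11.0% of all promoters. In all, 10 of 36 were bivalent (9.42% of all promoters), 1 was marked by H3K27me3 only (1.58%) and 25 by H3K4me3 only (54.2%).

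Upon induction the H3K27me3 ratio was below 0.5 at 8 of 36 pathway genes, against the 21.5% of all promoters, and the median log2 ratio was −0.40, against −0.15. Among the 8, PRKACA, KIF7, EVC2 and CCND2 were below 20 in −Dox cells. Their ratios rest on about 1.20 to 14.3 reads a library, and their intervals held 1. The interval lay below 1 at 6 of 36 genes, against 7.05% of all promoters, and above 1 at 0, against 1.58%. HHAT, the acyltransferase that adds palmitate to the ligands, went from 54.8 to 12.3, a ratio of 0.225 (0.102 to 0.459). GAS1, a co-receptor, went from 29.3 to 6.34, a ratio of 0.216 (0.0631 to 0.571). BOC, another co-receptor, went from 20.2 to 7.83, and LRP2, an endocytic receptor, from 120 to 85.0. Their ratios were 0.388 (0.117 to 0.986) and 0.707 (0.510 to 0.976). All 6 co-receptors and further receptors had ratios below 1, as had 11024 of the 19462 promoters with a ratio.

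Among the targets, the mesenchymal forkhead factor FOXL1 went from 73.4 to 45.9, a ratio of 0.625 (0.401 to 0.958), and the floor plate and endoderm factor FOXA2 from 114 to 26.8, a ratio of 0.236 (0.144 to 0.389). FOXF1, a factor of gut mesenchyme, had 206 and 254, a ratio of 1.23 (0.996 to 1.52). NKX2-2, a ventral neural tube factor, had 173 and 151, and FOXF2 had 186 and 162, with ratios of 0.873 and 0.872 whose intervals held 1, as did those of SCUBE2 (0.617), which helps to release the ligands, and of the survival factor BCL2 (0.541). With the libraries scaled to the same total, the intervals of BOC, LRP2 and FOXL1 held 1 and that of FOXF1 (1.17 to 1.79) lay above it, as did that of TULP3, which rests on about 1 read in −Dox cells. When scaled over unmarked promoters, the interval of BOC held 1 as well (0.120 to 1.01), and that of FOXF1 (1.02 to 1.55) again lay above it. H3K4me3 at FOXF2 went from 12.0 to 31.3, a ratio of 2.62 (1.24 to 5.36), and at FOXA2 from 51.0 to 74.9, a ratio of 1.47 (1.01 to 2.19), which held 1 when scaled over unmarked promoters. The H3K4me3 interval lay above 1 at these 2 of 36 genes, against 1.78% of all promoters, and below 1 at 0 as deposited, against 3.08%. Of the 36, 1, MYCN (0.760, 0.596 to 0.962), had an interval below 1 when scaled over unmarked promoters.

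**Figure D4:**
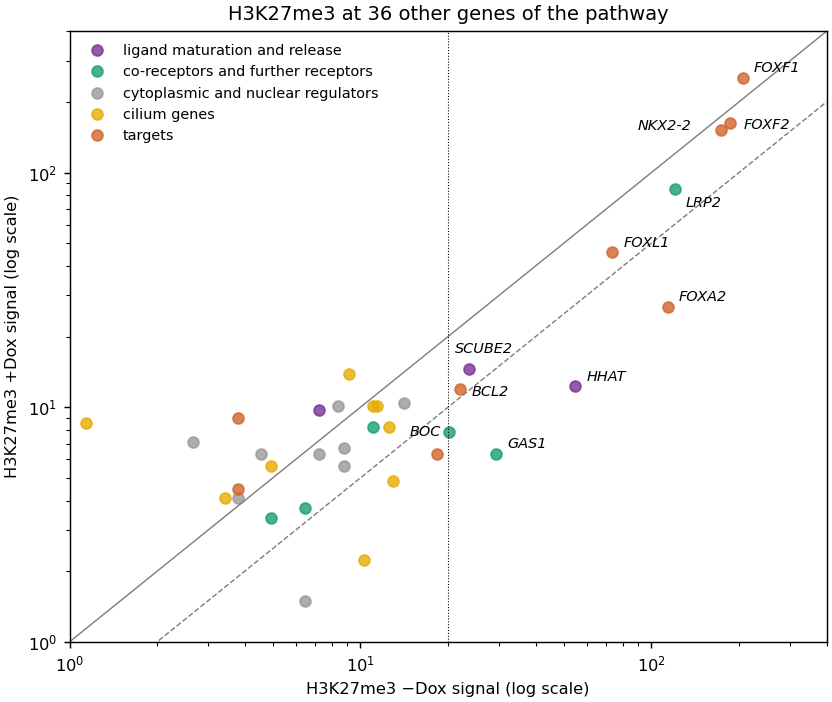
H3K27me3 signal in −Dox (horizontal) and +Dox (vertical) cells at 36 further pathway genes, on log scales and coloured by role, 1 library per axis. The solid line is a ratio of 1, the dashed line 0.5 and the dotted line a −Dox value of 20. Cytoplasmic regulators and cilium genes lie left of the dotted line. Below the dashed line lie 8 of the 36 genes, HHAT, GAS1 and FOXA2 among them, and some of the 8 lie left of the dotted line.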

How the data were processed

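ChIP-seq of H3K27me3 and H3K4me3 was made in −Dox and +Dox cells, with 1 library per group. Single-end MiSeq reads were mapped to hg19 with Bowtie2, and CASAVA 1.4 is named in the submitters' processing notes; mitochondrial reads were removed. The deposited values are signal, ngs.plot coverage that the authors scaled to the reads of each library and summed around 1 start site per Ensembl gene. Versions of Bowtie2, ngs.plot and the annotation are not given in the sources used here, nor whether the deposited values carry the normalization to density beyond the transcription end that the methods name. No input library was used here, and values scaled to library reads cannot show a genome-wide loss.

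Ratios are +Dox/−Dox of the values as deposited, without pseudocount. Reads were estimated by dividing by the step (100% of values were whole multiples) and by the 3.34 to 3.35 data points covered by a read. The ratio intervals were tested on simulated Poisson counts with known reads, which does not cover error in the estimated reads. Positions, GRCh37 sequence and annotation (GENCODE 44 mapped to GRCh37) were joined by transcript identifier for 18244 promoters (90.1%). The promoter sequence of 1 further member is not reported here. Members and gene lists were chosen with earlier results of these data known. Named are all members, and those pathway genes that were bivalent or whose interval excluded 1 under any scaling. Pathway genes with an H3K27me3 ratio below 0.5 are named as well. Python 3.11.15, pandas 2.3.3 and scipy 1.17.1 were used. Alternatives were 2 scalings, a pseudocount of 5 and class thresholds of 10 and 30.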

Additional observations from a re-analysis of the deposited data

How the results depend on the processing

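With 1 library per group, no library could be left out and no difference has a replicate check. No paired analysis was possible because the groups hold a single library each. Scaling to the same total shifts log2 H3K27me3 ratios by 0.23 and assumes an unchanged sum over promoters, and scaling over unmarked promoters shifts those of H3K4me3 by −0.17. All 54 recomputed member ratios stayed inside their counting intervals, and 2 crossed a ratio of 1. Of 22 recomputed summary values, 15 kept their direction, with counts within 1.5 times and medians inside a 95% order-statistic interval over the genes. Among them, members below 0.5 were 2 under each scaling, and with scaling to the same total the pathway median log2 H3K27me3 ratio was −0.17. The bivalent members were 5 at a threshold of 10 and 0 at 30, and the bivalent pathway genes 19 and 5. With a pseudocount of 5, the ratio was below 0.5 at 1 member and 5 pathway genes, a pseudocount drawing ratios of low values toward 1. The median log2 H3K4me3 ratio of the members turned from −0.02 to 0.0151 with scaling to the same total. At SMO and the GLI factors, H3K27me3 rests on too few reads for its ratio to be read.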

Other observations

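The promoters most like SHH over log2(value + 1) in the 4 libraries were PHLDB1 (Euclidean distance 0.202), SPAG6 (0.312) and TWIST1 (0.342). PHLDB1 had H3K27me3 values of 102 and 80.2 in −Dox and +Dox cells and H3K4me3 values of 21.1 and 34.3. Those most like PTCH1, the member with the lowest H3K27me3 ratio, were KIAA1244 (0.113), MCAM (0.160) and NID1 (0.273). KIAA1244 had H3K27me3 values of 26.6 and 9.32 and H3K4me3 values of 79.2 and 64.1. Distances rest on 1 library per mark and condition.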
